A study of Mus musculus with 9 samples.

Results

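The TRIM genes encode proteins built from a RING finger, B-box zinc fingers and a coiled coil, most of them ubiquitin ligases. The 63 genes described here are those of 68 symbols of the form Trim plus a number in the platform annotation that had a probe set named for 1 gene, and each is represented by the brightest such set, by the mean of the 9 arrays. They are 63 of 22180 genes with such a probe set. The other 5, Trim5, Trim34b, Trim60, Trim61 and Trim65, were read only by probe sets shared with another gene. Several TRIM proteins are known to act in antiviral defence, by binding incoming virus or by modifying the sensors and adaptors that lead to interferon, and some TRIM genes are themselves induced by interferon. Others are chromatin cofactors, muscle proteins or regulators of microtubules.

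Transcripts were measured on Affymetrix arrays in fibroblasts isolated from mouse embryos, a bulk culture in which fewer cells of a type and less RNA per cell cannot be told apart. The cells were wild type (WT, labelled STING+/+), without STING (SKO, STING-/-), the adaptor that relays detection of DNA in the cytosol, or without MyD88 (MyD88KO, MyD88-/-), an adaptor of most Toll-like receptors. Cells of each genotype were given transfected double-stranded DNA (ISD in the labels, dsDNA here) or were treated with lipopolysaccharide (LPS), which activates Toll-like receptor 4. Both lasted 6 h. The control is labelled mock, and each of the 9 combinations has 1 array. The sources used here do not give the embryos' age or strain, or whether mock cells received transfection reagent.

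The unit is the log2 signal (1 unit is 2-fold), and signals of different probe sets are not compared with each other. Array medians lay between 4.42 and 4.46. Sting1, the gene deleted in SKO, had signals of 3.78 to 4.60 on the SKO arrays and 8.54 to 9.32 on the other 6. Myd88 had 6.99 to 8.21 in MyD88KO against 7.52 to 8.95 in WT, so these ranges overlapped and did not check the MyD88KO label. By treatment MyD88KO was the lower, at 6.99 against 7.52 on mock, 8.21 against 8.95 with dsDNA and 7.17 against 7.73 with LPS. The mean of 10 fibroblast markers was 9.29 to 9.37 on the WT and SKO arrays and 9.98 to 10.14 on the MyD88KO arrays. The mean of 10 leukocyte and macrophage markers was 5.77 to 5.99 in WT, 6.38 to 6.51 in SKO and 6.01 to 6.14 in MyD88KO, with 8 or 9 of the 10 no lower than 4.44, the median over all probe sets and arrays, on every array. The mean of 4 endothelial markers was higher on the dsDNA than on the mock array, at 5.53 against 5.24 in WT, 5.16 against 4.81 in MyD88KO and 5.23 against 5.15 in SKO, so it moved with dsDNA in the same genotypes as the TRIM genes below. The part of these markers in the results was not tested.

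Since a condition has 1 array, a difference between 2 arrays has no replicate check. The tests below rest on the genotypes that share an adaptor. A limma model over all 22180 genes gave 1 dsDNA response to WT and MyD88KO, which both have STING, and 1 to SKO. It gave 1 LPS response to WT and SKO, which both have MyD88, and 1 to MyD88KO. The error is then the disagreement between genotypes, which limma draws toward that of genes of like signal (2 residual and 4.21 prior degrees of freedom). A ± value is thus not the spread of 1 gene alone. A gene was called at a Benjamini-Hochberg adjusted p under 0.05 over all genes.

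Promoter sequence is shown first for the genes that rose with dsDNA, because most of them share a short motif there. In the RefSeq promoter table (build GRCm38.p6), which spans 250 bases before to 50 after a start, 49 of the 63 genes had a window. The core of the interferon-stimulated response element, GAAA, any 2 bases and GAAA on either strand, is a DNA motif known from the promoters of many interferon-induced genes. It was found in 7 of the 9 members that rose with dsDNA and had a window, in 0 of 3 that fell, and in 1 of 37 called in neither direction. Of all 27025 genes in the table, 3.99% had the core in a window. Among the 7, Trim30a with Trim30d and Trim12a with Trim12c have closely alike windows, so the 7 are not independent of each other. Trim5 had no probe set of its own and was not tested, so in its line below "no riser" means untested and not unchanged. The probe sets it shares with Trim12c were higher with dsDNA in WT and MyD88KO, with values given further below. The stretches below, of these 7 and of Trim5 for its likeness to Trim12a, are 30 bases each, 5′ to 3′ on the gene's strand, with the core in capitals (TTTC, 2 bases and TTTC where it lies on the other strand).
Trim21, chr7:102565447-102565476, minus strand: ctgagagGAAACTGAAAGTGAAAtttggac
Trim30d, chr7:104507871-104507900, minus strand: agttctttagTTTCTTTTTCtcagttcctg
Trim30a, outer start, chr7:104465210-104465239, minus strand: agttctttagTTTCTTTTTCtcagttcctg
Trim30a, inner start, chr7:104446104-104446133, minus strand: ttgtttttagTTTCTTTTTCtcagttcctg
Trim34a, chr7:104244457-104244486, plus strand: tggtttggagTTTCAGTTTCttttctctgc
Trim12a, chr7:104315466-104315495, minus strand: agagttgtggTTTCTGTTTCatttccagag
Trim12c, chr7:104353359-104353388, minus strand: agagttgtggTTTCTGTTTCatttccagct
Trim5 (not measured alone, no riser), chr7:104288136-104288165, minus strand: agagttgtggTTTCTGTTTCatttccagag
Trim26, chr17:36836979-36837008, plus strand: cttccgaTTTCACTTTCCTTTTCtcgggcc
In Trim21 and Trim26 a pair of overlapping cores makes up the capitals. Counted from the start, the core began at base -160 in Trim26 and at base 14 in Trim21, the outermost positions among the risers. The gene called in neither direction was Trim2, with the core at 1 of its 5 listed starts (tcagctttggTTTCCTTTTCtctaagacag, chr3:84212791-84212820, minus strand), and its signals lay between 4.79 and 5.06 on all 9 arrays.

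Trim25 and Trim56 rose with dsDNA and had no core in the window. The 100 bases before their starts are given for comparison with those of Trim30a and Trim30d.
Trim25, chr11:88999303-88999402, plus strand: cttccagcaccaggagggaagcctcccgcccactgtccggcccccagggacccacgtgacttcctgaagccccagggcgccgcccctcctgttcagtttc
Trim56, chr5:137116208-137116307, minus strand: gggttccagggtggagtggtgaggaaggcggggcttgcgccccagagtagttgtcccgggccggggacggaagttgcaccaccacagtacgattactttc
Trim30a, outer start, chr7:104465194-104465293, minus strand: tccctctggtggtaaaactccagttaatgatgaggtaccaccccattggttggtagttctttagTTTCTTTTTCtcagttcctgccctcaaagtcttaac
Trim30d, chr7:104507850-104507949, minus strand: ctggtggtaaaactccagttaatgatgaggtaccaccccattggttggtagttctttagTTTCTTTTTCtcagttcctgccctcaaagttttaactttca
The windows of Trim30a and Trim30d were identical at 276 of 295 aligned bases, and those of Trim12a and Trim12c at 247 of 260. Those of Trim5 and Trim12a were identical at 241 of 241. Copies this close can share transcript sequence as well, so values of single Trim30, Trim34, Trim12 and Trim5 relatives are uncertain where a probe set may read a neighbour. The NF-kB site was found in 5 of 49 members, with 0 of the 9 risers among them, and in 9.55% of all 27025 genes. Motifs were searched separately on both strands and matches may overlap. A match is a description of the letters and not evidence of binding. Trim14, Trim16 and Trim33 had no entry.

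dsDNA raised 10 of the 63 TRIM genes in the STING-sufficient cells and lowered 5. Those that rose were Trim21, Trim30d, Trim25, Trim34a, Trim30a, Trim12a, Trim14, Trim26, Trim12c and Trim56, by fitted log2 changes of 1.27 to 4.52, and those that fell were Trim16, Trim24, Trim59, Trim33 and Trim27, by 0.39 to 0.72 on the log2 scale. Over all genes the same test called 2.89% up and 0.897% down, against 15.9% and 7.94% of the TRIM genes. By array, 9 TRIM genes were at least 2-fold above mock with dsDNA in WT, where 1.22% of all genes were, and 10 in MyD88KO, where 2.09% were. None was 2-fold lower with dsDNA in WT, SKO or MyD88KO, where 0.0631%, 0.00451% and 0.234% of all genes were. The median dsDNA minus mock difference over the TRIM genes was -0.01 in WT and 0.06 in MyD88KO, beside medians of 0.00 and -0.02 over all genes.

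**Figure D1:**
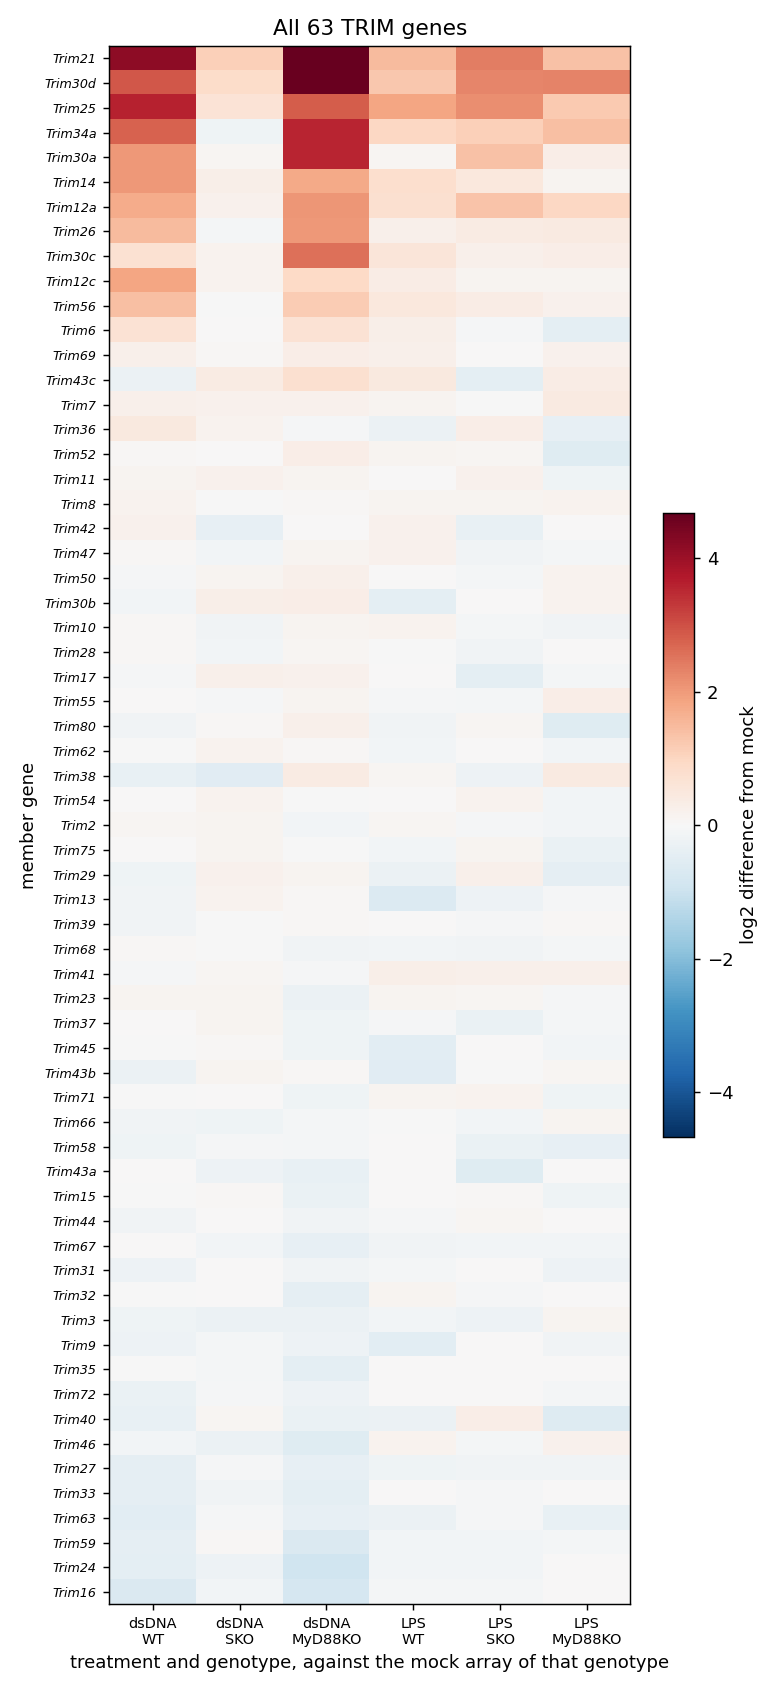
Log2 difference from the mock array of the same genotype for all 63 TRIM genes (rows) after dsDNA or LPS in WT, SKO and MyD88KO cells (columns), ordered by the mean dsDNA difference of WT and MyD88KO, with red for higher and blue for lower. The upper rows are red in the WT and MyD88KO dsDNA columns, paler in the SKO dsDNA column, and of mixed strength in the LPS columns.

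Trim21 had the largest change. Its product is a cytosolic antibody receptor that marks antibody-coated virus for degradation. Its signals on the mock, dsDNA and LPS arrays were 5.20, 9.37 and 6.68 in WT, 5.38, 6.48 and 7.76 in SKO, and 4.92, 9.58 and 6.28 in MyD88KO. The dsDNA arrays of WT and MyD88KO stood above the other 7, and the SKO dsDNA array lay below the SKO LPS array. The differences from mock were 18.0-fold in WT and 25.4-fold in MyD88KO, with a shared fitted change of 4.52 ± 0.20 (SE; limma adjusted p = 0.000183).

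Trim25, whose product is a ubiquitin ligase known for its action on the RNA sensor RIG-I, had signals of 6.11, 9.71 and 7.94 on the mock, dsDNA and LPS arrays of WT, 6.67, 7.32 and 8.85 in SKO, and 7.43, 10.26 and 8.68 in MyD88KO. Its shared change was 3.28 ± 0.20 (limma adjusted p = 0.000659). The MyD88KO mock array was the highest of the 3 mock arrays, by 1.32 over WT, and MyD88KO was also above WT with dsDNA and with LPS. Over matched treatments Trim25 did not pass for that genotype (0.87 ± 0.60, limma adjusted p = 0.474). That model gave SKO the same dsDNA term as WT and MyD88KO. Its error thus holds the smaller SKO response, and the test cannot decide the genotype difference. Trim56, a ligase reported to act on STING and cGAS, had 6.94, 8.33 and 7.44 in WT, 7.38, 7.36 and 7.74 in SKO, and 7.0, 8.18 and 7.21 in MyD88KO, a shared change of 1.27 ± 0.09 (limma adjusted p = 0.00118). The SKO mock array of Trim56 was above the other mock arrays, and the SKO dsDNA array was at the same level as SKO mock.

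Trim14 encodes an adaptor at mitochondria that lacks the RING finger. It had signals of 3.92, 5.94 and 4.73 in WT, 4.22, 4.50 and 4.70 in SKO, and 4.48, 6.26 and 4.62 in MyD88KO, again with the dsDNA arrays of WT and MyD88KO above the other 7 (shared change 1.86 ± 0.12, limma adjusted p = 0.000944). Trim26, a ligase gene that lies in the major histocompatibility complex, had 7.63, 9.09 and 7.86 in WT, 7.70, 7.61 and 8.08 in SKO, and 7.27, 9.27 and 7.70 in MyD88KO, and rose by 1.74 ± 0.13 (limma adjusted p = 0.0014). In SKO the dsDNA array of Trim26 was slightly below mock, by -0.09.

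**Figure D2:**
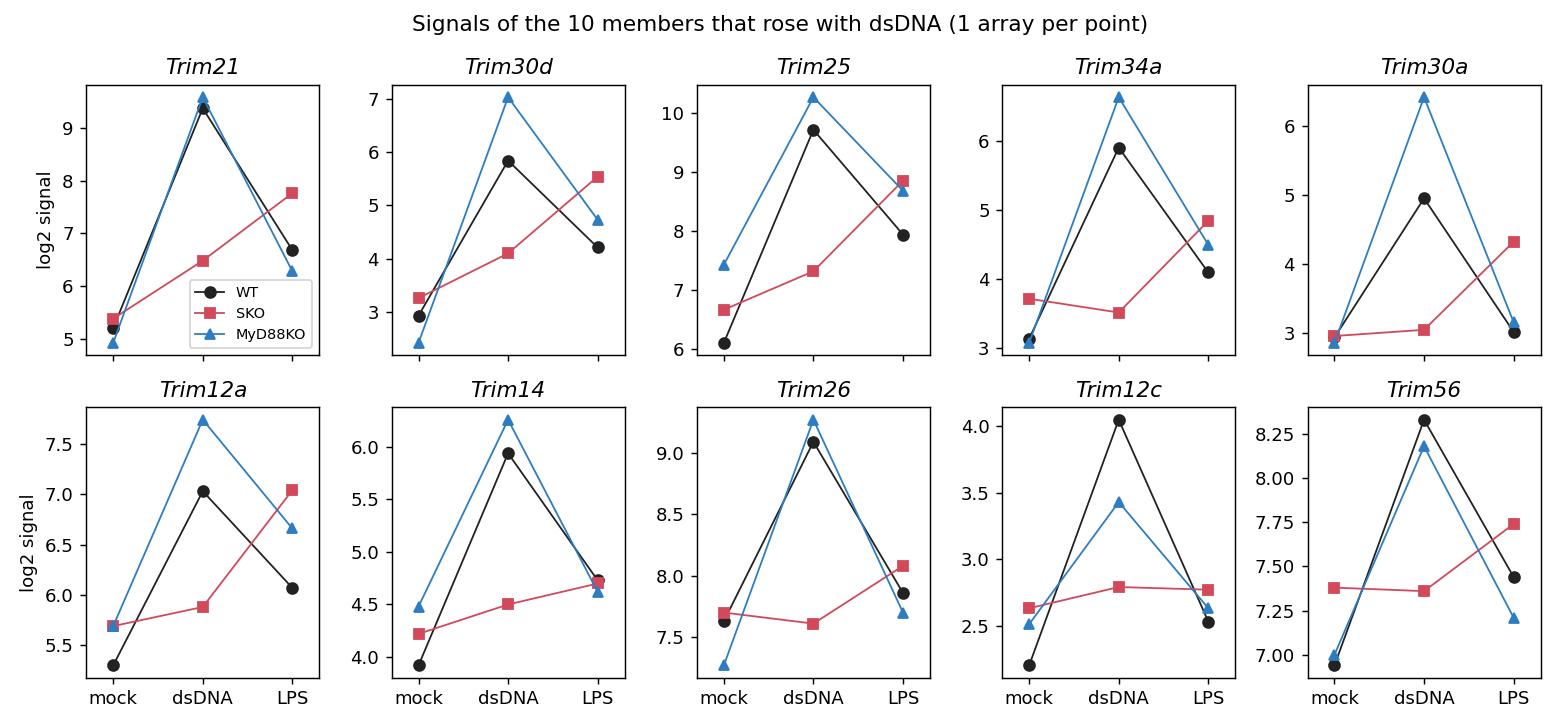
Log2 signals (vertical axes, a separate scale for each gene) of the 10 TRIM genes that rose with dsDNA, on the mock, dsDNA and LPS arrays of WT (black circles), SKO (red squares) and MyD88KO (blue triangles), with 1 array per point and lines joining arrays of 1 genotype. In 9 of the 10 panels the red line ends higher at LPS than at dsDNA, while the black and blue lines peak at dsDNA.

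The largest group of risers lies together on chromosome 7. In the order of the RefSeq table the run is Trim6, Trim34a, Trim5, Trim12a, Trim34b, Trim12c, Trim30b, Trim30c, Trim30a, Trim30d and the pseudogene Trim30e-ps1, and its products are relatives of the primate retrovirus restriction factor TRIM5. Trim34a had mock, dsDNA and LPS signals of 3.14, 5.91 and 4.10 in WT, 3.72, 3.52 and 4.85 in SKO, and 3.08, 6.64 and 4.50 in MyD88KO (shared change 3.16 ± 0.18, limma adjusted p = 0.000614). A dimmer probe set of Trim34a was higher with dsDNA by 0.43 in WT and 0.31 in MyD88KO, and with the mean of both sets the shared change was 1.75 and the difference from SKO 1.84, both still called. Trim12a had 5.30, 7.03 and 6.07 in WT, 5.69, 5.88 and 7.04 in SKO, and 5.69, 7.74 and 6.66 in MyD88KO (1.95 ± 0.15, limma adjusted p = 0.00158). For Trim12a the SKO LPS array was as high as the WT dsDNA array. Trim12c rose by 1.39 ± 0.21 (limma adjusted p = 0.0229), but its signals of 2.20 to 4.05 stayed under the median of all values on all 9 arrays, and without the WT dsDNA array the change was 0.92 and no longer called.

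Of the 4 Trim30 genes 2 passed. Trim30d had 2.93, 5.84 and 4.21 in WT, 3.26, 4.10 and 5.54 in SKO, and 2.42, 7.03 and 4.73 in MyD88KO, a shared change of 3.83 ± 0.37 (limma adjusted p = 0.00427). Trim30a, whose product is known as a brake on NF-kB signalling through TAB2 and TAB3, had 2.93, 4.95 and 3.01 in WT, 2.95, 3.04 and 4.32 in SKO, and 2.85, 6.42 and 3.15 in MyD88KO (2.92 ± 0.37, limma adjusted p = 0.0115). Both had a larger dsDNA difference in MyD88KO than in WT, 4.61 against 2.90 for Trim30d and 3.57 against 2.02 for Trim30a. The mock signals of both genes lay under the median of all values, where background limits what an array can show, so these sizes are uncertain. Trim30c did not pass, with differences of 0.72 in WT and 2.58 in MyD88KO (limma adjusted p = 0.127), and Trim30b had signals of 2.87 to 3.33 on all arrays. Trim6, at the other end of the run, was higher with dsDNA by 0.66 in WT and 0.67 in MyD88KO and missed the threshold (0.62 ± 0.12, limma adjusted p = 0.0529).

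Probe sets shared by 2 of these genes gave further values, described without a test. The one named for Trim34b and Trim34a had mock, dsDNA and LPS signals of 3.24, 5.91 and 4.86 in WT, 3.52, 3.99 and 5.05 in SKO, and 2.08, 6.48 and 3.73 in MyD88KO. Of the pair named for Trim12c and Trim5, the brighter one was higher with dsDNA by 1.41 in WT, 0.23 in SKO and 1.20 in MyD88KO, and the dimmer one by 1.60, 0.37 and 0.31. These sets cannot assign the signal to either gene. The shared sets of Trim60 with Trim61 and of Trim65 with Trim47 differed from mock by at most 0.43 in size.

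The genes on either side of the run did not pass. The 5 measured genes before it, Ubqln5, Ubqlnl, Olfm5, Olfr648 and Olfr649, had dsDNA differences of -0.45 to 0.14 in WT and MyD88KO. The 5 after it, Olfr651 to Olfr655, had -0.56 to 0.34. The genes of the second run, on chromosome 17, also differed among themselves. Trim26 rose there, while the other TRIM genes there, Trim39, Trim15, Trim10, Trim40 and Trim31, had dsDNA differences of -0.35 to 0.11 in WT and MyD88KO. Gm10499, which lies outside this run and before Trim39 in the RefSeq order, also rose (1.05, limma adjusted p = 0.0297).

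**Figure D3:**
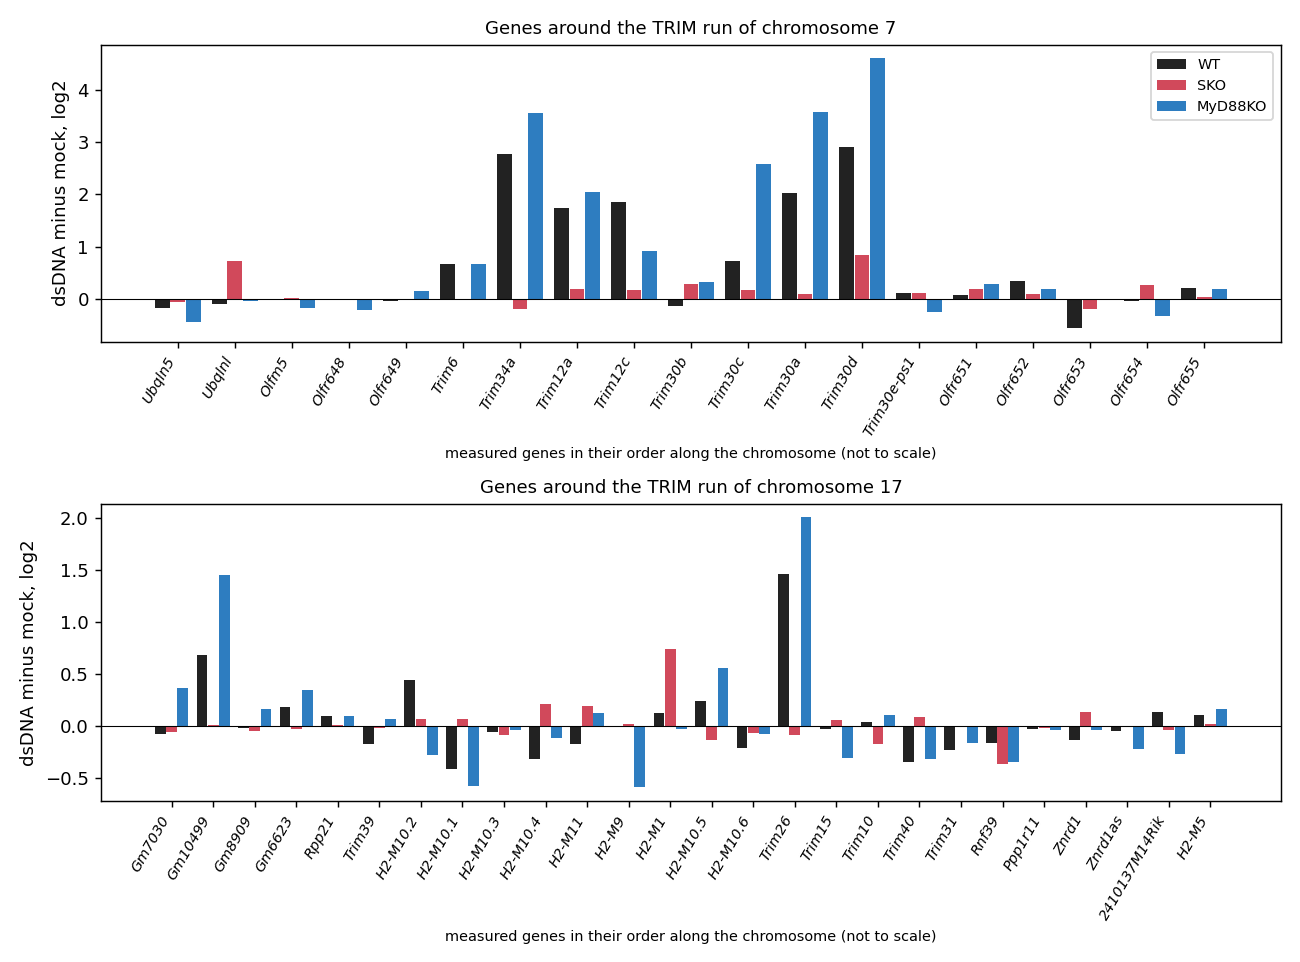
dsDNA minus mock (log2, 1 array on each side) in WT (black), SKO (red) and MyD88KO (blue) for measured genes in their order along chromosomes 7 and 17, not to scale. On chromosome 7 the tall black and blue bars lie between Trim34a and Trim30d, and on chromosome 17 Trim26 has the tallest bars, 1.46 in WT and 2.01 in MyD88KO, with Gm10499 next at 1.45 in MyD88KO.

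The 5 genes that fell with dsDNA did so by less than 2-fold. Trim16, known for its part in the removal of damaged lysosomes, had mock, dsDNA and LPS signals of 9.06, 8.41 and 8.97 in WT, 8.73, 8.59 and 8.64 in SKO, and 8.89, 8.11 and 8.92 in MyD88KO (shared change -0.72 ± 0.07, limma adjusted p = 0.00366). Its lowest signals were those of the WT and MyD88KO dsDNA arrays. Trim24 and Trim33, nuclear cofactors with a PHD finger and a bromodomain, changed by -0.68 ± 0.12 (limma adjusted p = 0.0334) and -0.45 ± 0.08 (0.0346). Trim24 went from 8.73 to 8.27 in WT, from 8.66 to 8.44 in SKO and from 8.21 to 7.27 in MyD88KO. Trim33 went from 7.53 to 7.12, from 7.41 to 7.25 and from 7.33 to 6.88 in the same order. In both genes the SKO difference had the same sign and was the smallest of the 3.

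Trim59, a membrane-anchored member, fell by 0.53 (SE 0.08, limma adjusted p = 0.0203), with mock and dsDNA signals of 8.53 and 8.11 in WT, 9.16 and 8.50 in MyD88KO, and 8.46 and 8.51 in SKO. Trim27, a ligase linked to endosomal sorting, fell by 0.39 (SE 0.07, limma adjusted p = 0.0398), with 7.94 and 7.52 in WT, 8.16 and 7.78 in MyD88KO, and 7.78 and 7.71 in SKO. With the mean over its probe sets Trim27 was at -0.27 and not called. After LPS the 5 genes differed from mock by -0.20 to 0.03 over all 3 genotypes.

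These calls lean on single arrays. With the WT LPS, SKO mock or SKO LPS array left out, 3 of the 15 calls were left (Trim12a, Trim14 and Trim21), and without the MyD88KO mock or dsDNA array 5 were left (Trim21, Trim25, Trim26, Trim34a and Trim56), in fits with 1 residual degree of freedom in place of 2. Trim21 passed in all 16 alternatives, and the 5 falls were among the calls lost in each of these 5 fits.

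The 10 risers were chosen by their dsDNA response in WT and MyD88KO, so a lower value in SKO is in part fixed by that choice and is given as a description. In SKO their dsDNA minus mock differences were -0.20 to 1.10 with a median of 0.18, against 1.40 to 4.17 (median 2.02) in WT and 0.92 to 4.67 (median 2.44) in MyD88KO. Trim21 was the 1 TRIM gene at least 2-fold higher in SKO, with 1.10, where 0.0902% of all genes were that much higher. Trim30d had 0.84, Trim25 0.65 and Trim14 0.29, and Trim34a, Trim26 and Trim56 were under mock. limma called 0 TRIM genes and 0.0% of all genes for dsDNA in SKO (2 TRIM genes, 3.17%, and 4.25% of all genes at unadjusted p under 0.05; robust eBayes also called 0), an effect that rests on 1 dsDNA array.

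The difference of response between the STING-sufficient cells and SKO was tested in the same model. It passed for 7 TRIM genes, all with the larger response in the STING-sufficient cells, where 0.645% of all genes passed in that direction and 0.0135% in the other. Trim21 differed by 3.63 ± 0.32 (limma adjusted p = 0.00965) and Trim34a by 3.35 ± 0.30 (0.00965). Trim25 differed by 2.78 ± 0.31 (0.0246), Trim12a by 1.90 ± 0.23 (0.0347), Trim26 by 1.83 ± 0.20 (0.0222), Trim14 by 1.5 ± 0.20 (0.04) and Trim56 by 1.27 ± 0.14 (0.0222). Trim30d (3.15 ± 0.59, limma adjusted p = 0.131), Trim30a (3.06 ± 0.59, 0.141) and Trim12c (1.24 ± 0.34, 0.333) did not pass, nor did any of the 5 genes that fell, with -0.56 to -0.31 and adjusted p-values of 0.13 to 0.605. All 7 calls were lost without any 1 of the WT dsDNA, WT LPS, SKO mock, SKO LPS, MyD88KO mock or MyD88KO dsDNA arrays, and 2 remained without the intensity trend.

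**Figure D4:**
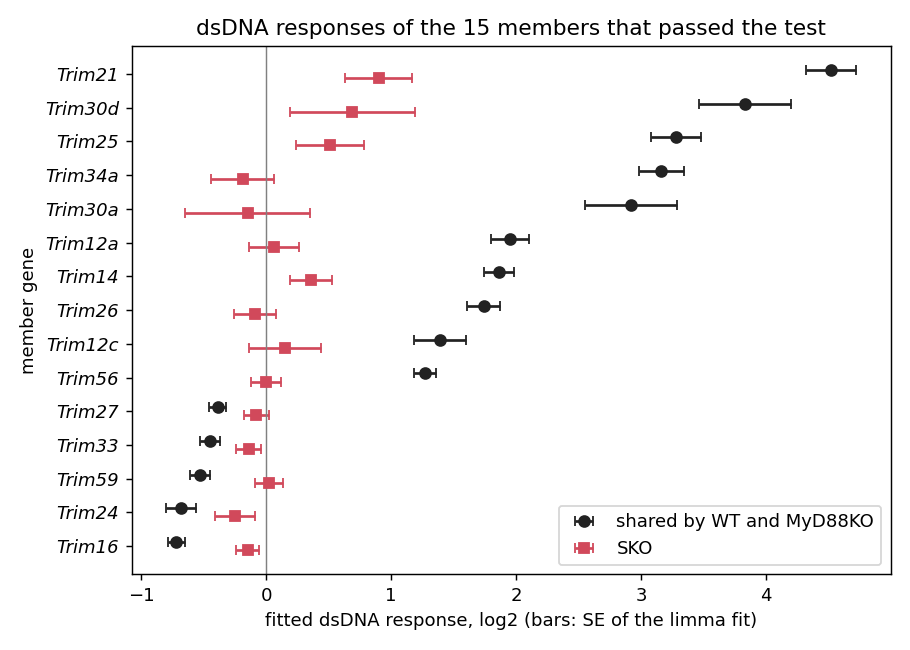
Fitted dsDNA response (log2, horizontal axis; bars are the SE of the limma fit) of the 15 TRIM genes that passed, shared by WT and MyD88KO (black circles) and in SKO (red squares). The SKO points of the 10 risers lie between -0.19 and 0.90 and all of their shared responses at 1.27 or above.

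LPS called fewer TRIM genes. In the MyD88-sufficient cells Trim21 rose by 1.97 ± 0.20 (limma adjusted p = 0.0314) and Trim25 by 1.89 ± 0.20 (0.0326), 2 of 63 genes, where 0.194% of all genes were called up and 0 genes down (12 TRIM genes, 19.0%, and 5.41% of all genes had an unadjusted p under 0.05). Trim30d (1.97 ± 0.37, adjusted p = 0.347), Trim34a (1.15 ± 0.18, 0.219) and Trim12a (1.08 ± 0.15, 0.115) did not pass in limma. Both calls were lost without the intensity trend, in a fit of the WT and SKO arrays alone, and without any 1 of the WT dsDNA, WT LPS, SKO mock, SKO LPS, MyD88KO mock or MyD88KO dsDNA arrays. Without the WT mock array Trim12a, Trim21 and Trim30d passed.

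By array, LPS gave at least 2-fold higher signals for 2 TRIM genes in WT, Trim21 and Trim25, against 0.541% of all genes. In SKO there were 5, with Trim12a, Trim30d and Trim34a added, against 0.338%, and in MyD88KO 4, Trim21, Trim25, Trim30d and Trim34a, against 0.374%. None was 2-fold lower in WT, SKO or MyD88KO, where 0.0451%, 0.00902% and 0.0361% of all genes were. Trim21 was higher with LPS by 1.48 in WT, 2.38 in SKO and 1.36 in MyD88KO, and Trim25 by 1.83, 2.18 and 1.24. Trim30a differed by 0.08 in WT, 1.37 in SKO and 0.30 in MyD88KO. The LPS minus mock differences of the 10 dsDNA risers had medians of 0.78 in WT, 1.24 in SKO and 0.70 in MyD88KO, beside 0.01, 0.00 and 0.00 over all 63 TRIM genes. In WT and MyD88KO these use the mock arrays that also entered the choice of the risers. Through the LPS term shared by WT and SKO, the WT LPS, SKO mock and SKO LPS arrays entered that choice as well. The SKO arrays also held the higher leukocyte marker means given above, 6.38 to 6.51, and the part of these cells in the LPS levels was not tested.

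In MyD88KO limma called 0 TRIM genes for LPS (12, and 7.7% of all genes, at unadjusted p under 0.05; robust eBayes also called 0), where 4 genes or 0.018% were called up over all genes. Of the TRIM genes, none of them called, Trim30d had 1.92 ± 0.50, Trim25 1.47 ± 0.27, Trim21 1.29 ± 0.27 and Trim34a 1.22 ± 0.25. Each of these values rests on 1 LPS array. The LPS response of the cells with MyD88 minus that of MyD88KO passed for 0 TRIM genes and 0.0% of all genes (4 TRIM genes, 6.35%, and 5.7% of all genes at unadjusted p under 0.05; robust eBayes also called 0). It was 0.68 ± 0.32 for Trim21 (limma adjusted p = 0.835) and 0.42 ± 0.31 for Trim25 (0.868), so neither an equal nor an unequal response was shown.

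The treated arrays can also be set directly against each other, with no mock array involved. The risers were chosen for high WT and MyD88KO dsDNA arrays, so their position in these genotypes is fixed in part by that choice. The WT LPS and SKO LPS arrays entered the choice too, through the LPS term shared by WT and SKO. The dsDNA array was above the LPS array for 10 of 10 risers in WT, by 0.89 to 2.69, and for 10 of 10 in MyD88KO, by 0.79 to 3.30. In SKO it was above for 1 of 10, Trim12c with 0.02, and below for the other 9, with differences down to -1.53 for Trim25. Of the 53 other TRIM genes the dsDNA array was the higher in 23, 28 and 23 in WT, SKO and MyD88KO, and over all genes the medians were 0.00, 0.01 and -0.01. No test was made, since each value compares 1 array with 1 array.

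**Figure D5:**
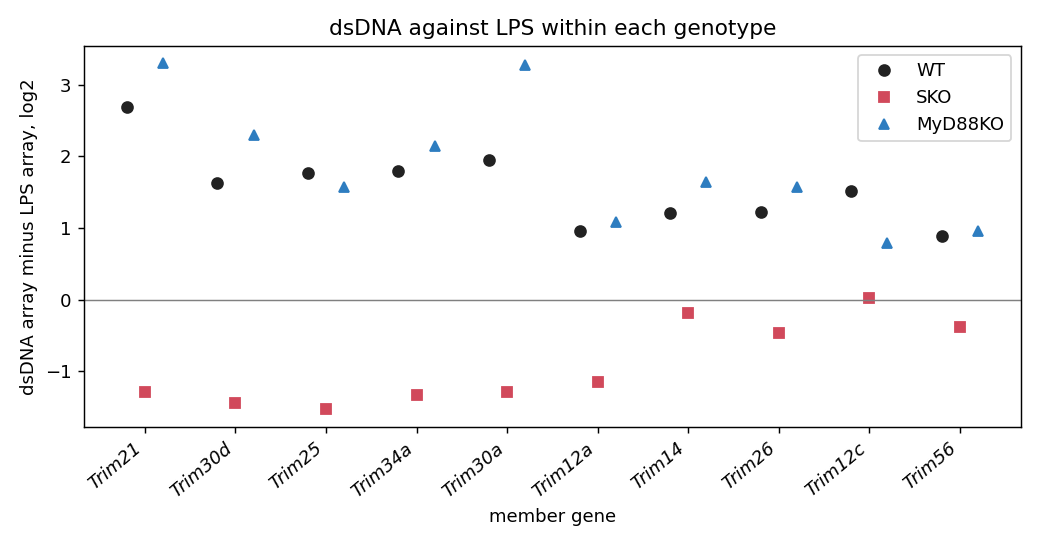
dsDNA array minus LPS array (log2, vertical axis) for the 10 TRIM genes that rose with dsDNA, in WT (black circles), SKO (red squares) and MyD88KO (blue triangles), 1 array on each side. Black and blue points lie above 0 for all 10 genes, and red points lie below 0 for all but Trim12c.

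Most TRIM genes stayed near mock. Of the 63, 38 (60.3%) differed from mock by less than 0.5 on the log2 scale in all 6 comparisons, against 78.9% of all genes. Trim27 and Trim33, which fell with dsDNA, are among the 38. Of 16 measured members of an interferon-linked group 10 rose with dsDNA and 0 fell, a list written with earlier results of these data known, where 2.89% of all genes rose and 0.897% fell. Those of the group that did not rise were Trim6, Trim30b, Trim30c, Trim13, Trim23 and Trim38. Trim38, which is known to restrain Toll-like receptor signalling, had signals of 2.87 to 3.57 with no common direction, and Trim23, which carries an ARF domain, 6.22 to 6.80. Trim13, a ligase of the endoplasmic reticulum, had its largest difference with LPS in WT, at -0.64.

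The 4 chromatin cofactors included the fallers Trim24 and Trim33. Trim28, the corepressor KAP1 that silences retroelements, had signals of 9.46 to 9.85 on all arrays, and Trim66 4.08 to 4.44. Among the 4 members with NHL repeats 0 were called, where dsDNA called 2.89% of all genes up and 0.897% down, and LPS 0.194% up. Trim3 had signals of 7.97 to 8.53, Trim32 of 6.65 to 7.36, and Trim71, the stem cell gene Lin41, of 5.33 to 5.69. The 7 members with a COS box, which bind microtubules or the sarcomere, and the 4 muscle members Trim54, Trim55, Trim63 and Trim72 gave 0 calls with either agent, and the muscle genes had signals of 4.11 to 5.28. The 13 measured tissue-restricted members had signals of 2.25 to 5.41 and 0 calls. Among them Trim43c was 0.74 higher with dsDNA in MyD88KO and -0.27 from mock in WT, and Trim40 was -0.59 from mock with LPS in MyD88KO.

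Of 17 broadly expressed members 0 rose and 3 fell with dsDNA (Trim16, Trim27 and Trim59), where 2.89% of all genes rose and 0.897% fell. Trim44 had signals of 8.58 to 9.10, Trim8, a regulator of cytokine signalling, 8.43 to 8.76, and Trim37, a centrosome regulator, 7.05 to 7.81. All of these signals are above the median of all values. Trim52 of the same group (2.90 to 3.77), Trim30b, Trim38 and several tissue-restricted members lie below it, where background limits what an array can show. So do the mock signals of Trim30a, Trim30d and Trim34a, all signals of Trim12c, and the WT and SKO mock signals of Trim14 (3.92 and 4.22).

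Between genotypes at matched treatments 0 TRIM genes passed with at least a 2-fold difference, in SKO against WT (0.257% of all genes) or in MyD88KO against WT (2.0%). At any size 0 passed for SKO (1.20% of all genes) and 6 for MyD88KO, where 11.5% of all genes passed and 9.52% of the TRIM genes did. In limma 5 TRIM genes (7.94%) had an unadjusted p under 0.05 for SKO, against 12% of all genes. The model gave SKO the same dsDNA term as WT and MyD88KO, so its error holds the smaller SKO response of the dsDNA risers. Their SE in both comparisons ran from 0.27 for Trim56 to 0.78 for Trim21, against 0.05 to 0.15 for the 6 called genes. For the risers the test thus cannot decide a genotype difference, and no conclusion is drawn from their lack of calls. Trim7 (-0.69 ± 0.10, limma adjusted p = 0.00482), Trim24 (-0.62 ± 0.15, 0.0378), Trim11 (-0.52 ± 0.09, 0.00749), Trim72 (-0.46 ± 0.09, 0.0137) and Trim44 (-0.31 ± 0.05, 0.00885) were lower and Trim59 (0.57 ± 0.13, 0.0339) was higher in MyD88KO. Trim7 had signals of 5.01 to 5.44 in MyD88KO and 5.79 to 6.02 in WT, with no overlap. Trim72, a membrane repair gene of muscle, had 4.42 to 4.65 against 4.80 to 5.11, and the mean of 12 muscle markers was also lower, 5.47 to 5.74 against 6.17 to 6.41, whose part in this was not tested. Trim24 lost its call in 7 of 12 alternatives and Trim59 in 6, both without the intensity trend and the others with 1 array left out, among them WT mock, WT dsDNA, WT LPS or MyD88KO mock for both genes. Without the WT mock array the calls of Trim11, Trim44 and Trim72 were also lost, and Trim24 was at -0.40 without the MyD88KO dsDNA array. The call of Trim7 was lost with the mean over its probe sets (-0.31). These 6 were named after their values were seen.

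TRIM proteins under other symbols gave 1 call in 10 for the shared dsDNA response, where 2.89% of all genes rose and 0.897% fell. Pml, the TRIM gene of nuclear bodies, rose with dsDNA by 1.62 ± 0.08 (limma adjusted p = 0.000326), with mock and dsDNA signals of 8.48 and 9.97 in WT, 8.73 and 10.41 in MyD88KO, and 8.89 and 9.12 in SKO. Mid1 and Mid2, microtubule-associated relatives, differed from mock by -0.16 to 0.17 with dsDNA in the 3 genotypes. Of 30 measured genes for partners of TRIM proteins in nucleic acid sensing and interferon signalling, 14 rose and 0 fell with dsDNA (2.89% and 0.897% of all genes) and 7 rose with LPS in the MyD88-sufficient cells (0.194%). This list too was written with earlier results known. Ddx58, the RIG-I gene, rose by 2.89 ± 0.11 (limma adjusted p = 0.000131), Irf7, an interferon regulatory factor, by 4.26 ± 0.18 (0.000174) and Isg15 by 4.27 ± 0.24 (0.000521). Their SKO dsDNA differences were 0.52, 0.46 and 1.10, in the range of those of the TRIM risers. Ifnb1, the interferon beta gene, rose by 2.48 ± 0.15 (0.000615) with dsDNA and was at 2.58 against 2.77 for mock in SKO. Apart from the WT and MyD88KO dsDNA arrays, its signals of 2.36 to 3.49 lay under the median of all values. Background limits what an array can show there, so these sizes are uncertain. The signalling genes Mavs, Tab2, Map3k7 and Jak1 differed from mock by at most 0.16 in size with dsDNA.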

How the data were processed

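The values that the authors deposited are log2 signals, 1 for each of the probe sets of an array, made with Affymetrix Expression Console 1.3.1.187 per the submitters' processing notes. How background was corrected and signals normalised and summarised, and the genome build, are not given here by any label or header. The log2 scale was read from the values. Total RNA was extracted with a column kit and labelled with a whole-transcript kit, per the labels' protocols. Each array has 41345 probe sets, of which 23521 have 1 gene symbol, 1814 several and 16010 none in the platform table. All 63 genes matched the RefSeq table (GRCm38.p6) by gene identifier, which gave names and gene order only, and promoter sequences are from RefSeq.

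The fits were made in R 4.3.3 by limma 3.58.1, with an intensity trend and without a filter on dim genes, so that every TRIM gene was tested. The response model left 2 residual degrees of freedom and the additive genotype and treatment model 4, beside prior degrees of freedom of 4.21 and 3.44. A response shared by genotypes need not equal the difference of any pair of arrays. The script was tested on simulated data. Between 2 arrays, a gene counted when it differed by at least 1 on the log2 scale and the brighter signal was 4.44 or more. The labels do not say whether cultures were separate, so the p-values cover only the spread among these 9 arrays, whose small number limits precision.

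The members, lists, roles and alternatives were chosen with earlier results of these data known. By the rule for named genes, values are given for the 16 genes called in a response test, called with at least a 2-fold difference between genotypes, or past 2-fold between arrays, the 4 others nearest 2-fold (Trim43c, Trim6, Trim13 and Trim40), the 4 others with the highest mean (Trim28, Trim44, Trim8 and Trim3), and the gene groups described. A further motif that was searched is not reported here.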

Additional observations from a re-analysis of the deposited data

Results flagged for a closer look

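The dsDNA response differed between the STING-sufficient cells and SKO by the test of the difference for 7 TRIM genes. The fitted differences were 3.63 for Trim21, 3.35 for Trim34a, 2.78 for Trim25, 1.90 for Trim12a, 1.83 for Trim26, 1.5 for Trim14 and 1.27 for Trim56. Each rests on 1 SKO dsDNA array.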

How the results depend on the processing

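The 30 calls of single TRIM genes were repeated under the alternatives, 437 checks of a call under a setting in all. In none did the direction change, and 161 lost the call. Settings that alter only the error estimate or the genes kept leave the fitted change as it was, so there the direction could not change. The same holds where the array left out does not enter the fitted change. With 1 array left out at a time, TRIM calls ranged from 3 to 15 for the shared dsDNA response (15 with all arrays), from 0 to 3 for the shared LPS response (2 with all), and from 0 to 8 for the dsDNA difference from SKO (7 with all). Without the intensity trend the LPS response held 0 calls and the difference from SKO 2, and the fit of the WT and SKO arrays alone held 0 for LPS. At 1.5-fold in place of 2-fold, 2 TRIM genes differed with dsDNA in SKO (1 at 2-fold) and 5 with LPS in WT (2 at 2-fold). MyD88KO against WT held 6 calls at any size and 0 at 2-fold. No paired analysis was possible because each group has 1 array and the replicate number is 1 throughout, so a replicate block could not be fitted. The genotype comparisons hold the treatment as a term.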
